A study of Mus musculus with 6 samples.

Results

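Transcripts of 7 genes of cholesterol synthesis, Hmgcs1, Idi1, Sqle, Lss, Cyp51, Dhcr7 and Insig1, were followed in mouse cortex injected with a vector for poly-GA. The genes were chosen by symbol as targets of the transcription factor SREBP2. All 7 were found among the 18283 genes of the deposited table, and all 7 were among the 14324 genes expressed highly enough to be tested. Although the set is named for synthesis and uptake, 6 of its genes encode enzymes of synthesis and Insig1 encodes a regulator. No receptor for uptake is in it, so genes of uptake are described beside it.

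Libraries came from cortex of mice labelled wild type (WT) injected with AAV-GFP-GA, and control libraries from WT cortex injected with AAV-GFP, 3 libraries each at 5 months. AAV stands for the vector, an adeno-associated virus, GFP is green fluorescent protein, and GFP-GA joins it to poly-GA, a glycine-alanine repeat protein made from the expanded C9orf72 repeat of amyotrophic lateral sclerosis and frontotemporal dementia. Both groups carry the vector and GFP. The labels do not give the promoter of the vector, the age at injection, the sex, or whether a library holds 1 or several animals, so p-values measure the spread between these libraries. Expected counts per library ranged from 16748754 to 17576017.

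The libraries were not uniform. AAV-GFP replicate 3 had 1 read from 4 Y-linked genes, and the other 5 libraries had between 2018 and 2270. Of 24 intestinal epithelium markers 23 were in the table, and they held 223, 242 and 337 reads in poly-GA cortex (AAV-GFP-GA) against 86, 70 and 216 in AAV-GFP cortex. AAV-GFP replicates 1 and 2 thus stood apart from the other 4 libraries in these reads. In a fit with a term for this library set the only control left for comparison is AAV-GFP replicate 3, the library with 1 Y-linked read. There poly-GA cannot be told apart from whatever else is particular to that library. Values of this fit are given for genes fixed by rule where it turned the sign or moved the size by over 1.5 times. Cortex markers were present in all libraries, with neuron markers such as Camk2a at a summed 14406 to 15520 CPM in AAV-GFP-GA libraries and 14380 to 14849 CPM in AAV-GFP libraries. CPM is the reads of a gene scaled to a common library size, corrected by TMM factors.

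Cholesterol in the brain is made locally, because lipoproteins of the blood do not cross the blood-brain barrier in quantity. Oligodendrocytes need it for myelin, and astrocytes supply it to neurons on particles that carry apolipoprotein E. When sterol in the endoplasmic reticulum is low, the escort protein SCAP brings SREBP2 to the Golgi, where proteases release the part that enters the nucleus and switches on the genes of synthesis and uptake. INSIG1 holds SCAP back when sterol is plentiful, and its own gene is an SREBP target, and transcripts of such targets are commonly used as a readout of the pathway.

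SREBP2 binds sterol response elements in promoters, usually beside a CCAAT box bound by NF-Y. The stretches before the starts of Hmgcs1, Cyp51 and Insig1 are shown for 3 of the 5 genes whose transcripts varied together over the libraries, as given below. The sequences are from RefSeq (GRCm38.p6, the build also called mm10), 5′ to 3′ on the strand of the gene, and leave out bases that GENCODE M21 annotates as exon of the gene. Capitals mark matches to TCACNNCA, a relaxed form of the sterol response element, or to CCAAT, on either strand. The Hmgcs1 stretch covers chr13:119690101-119690350 (plus strand), the Cyp51 stretch chr5:4104747-4104947 (minus strand) and the Insig1 stretch chr5:28071162-28071362 (plus strand).
Hmgcs1: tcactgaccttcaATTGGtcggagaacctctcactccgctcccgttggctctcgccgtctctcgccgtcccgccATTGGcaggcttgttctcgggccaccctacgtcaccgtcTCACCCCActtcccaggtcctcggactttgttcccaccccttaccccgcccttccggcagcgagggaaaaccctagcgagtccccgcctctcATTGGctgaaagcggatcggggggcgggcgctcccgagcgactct
Cyp51: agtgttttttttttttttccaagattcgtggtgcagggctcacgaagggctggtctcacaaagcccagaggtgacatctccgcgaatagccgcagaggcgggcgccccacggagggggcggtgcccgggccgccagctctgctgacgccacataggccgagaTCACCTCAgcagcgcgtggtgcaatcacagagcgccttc
Insig1: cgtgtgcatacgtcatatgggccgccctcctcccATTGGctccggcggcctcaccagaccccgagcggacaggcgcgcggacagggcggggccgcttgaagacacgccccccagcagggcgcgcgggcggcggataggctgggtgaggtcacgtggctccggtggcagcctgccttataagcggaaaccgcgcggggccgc

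A window of 250 bases before the start was searched on both strands for 6 of the 7 genes, and Sqle was not searched. Hmgcs1 was the only one of the 6 with the stricter element TCACNCCAC, whose match TCACCCCAC began 137 bases before its start. That element was in 1.05% of 32851 promoter windows. The relaxed form TCACNNCA, which overlaps the stricter one, was in 11.4% of all windows and in a window of 3 of the 6 genes, Hmgcs1, Cyp51 and Dhcr7. The Cyp51 match, TCACCTCA, began 88 bases before the start. All 6 genes had CCAAT, which was in 33.8% of windows, and the GC box GGGCGG, which was in 32.7%. The CCAAT of Cyp51 began 29 bases before the start, among bases annotated as exon and left out of the stretch shown. Dhcr7 has 3 annotated starts and so 3 windows, while the shares are per window. The window before its first start held neither the relaxed element nor CCAAT; the relaxed element lay before the other two starts and CCAAT before the last one. For Hmgcs1 and Lss the bases just after the RefSeq start were not found in a GENCODE M21 transcript of the gene. The distance given for Hmgcs1 thus rests on the RefSeq start. A match describes the letters and does not show that a factor binds there.

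None of the 7 genes passed the test between AAV-GFP-GA and AAV-GFP cortex, where 0.0209% of all tested genes did. The test was edgeR's quasi-likelihood test, with p-values adjusted over all 14324 genes and a threshold of 0.05. Of the 7 log2 fold changes 5 were negative and 2 positive, where 51.4% of all tested genes were negative and 48.6% positive. The median of the 7 was -0.10, and over all genes it was -0.0039. With the library set term 4 of the 7 values were positive and the median was 0.019. Leaving out 1 library gave medians from -0.14, when it was AAV-GFP-GA replicate 3, to -0.041, when it was AAV-GFP-GA replicate 2. When it was AAV-GFP replicate 1 the median was -0.052. The 95% intervals of the 7 genes ran from 0.744-fold at the lowest to 1.18-fold at the highest, so each left out a 1.5-fold difference in either direction. Insig1 alone had an unadjusted p under 0.05, as did 6.64% of all genes; its direction was lower, which 3.45% of all genes shared at that p. DESeq2 gave 0 of the 7 an adjusted p under 0.05 and 0 an unadjusted one.

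**Figure D1:**
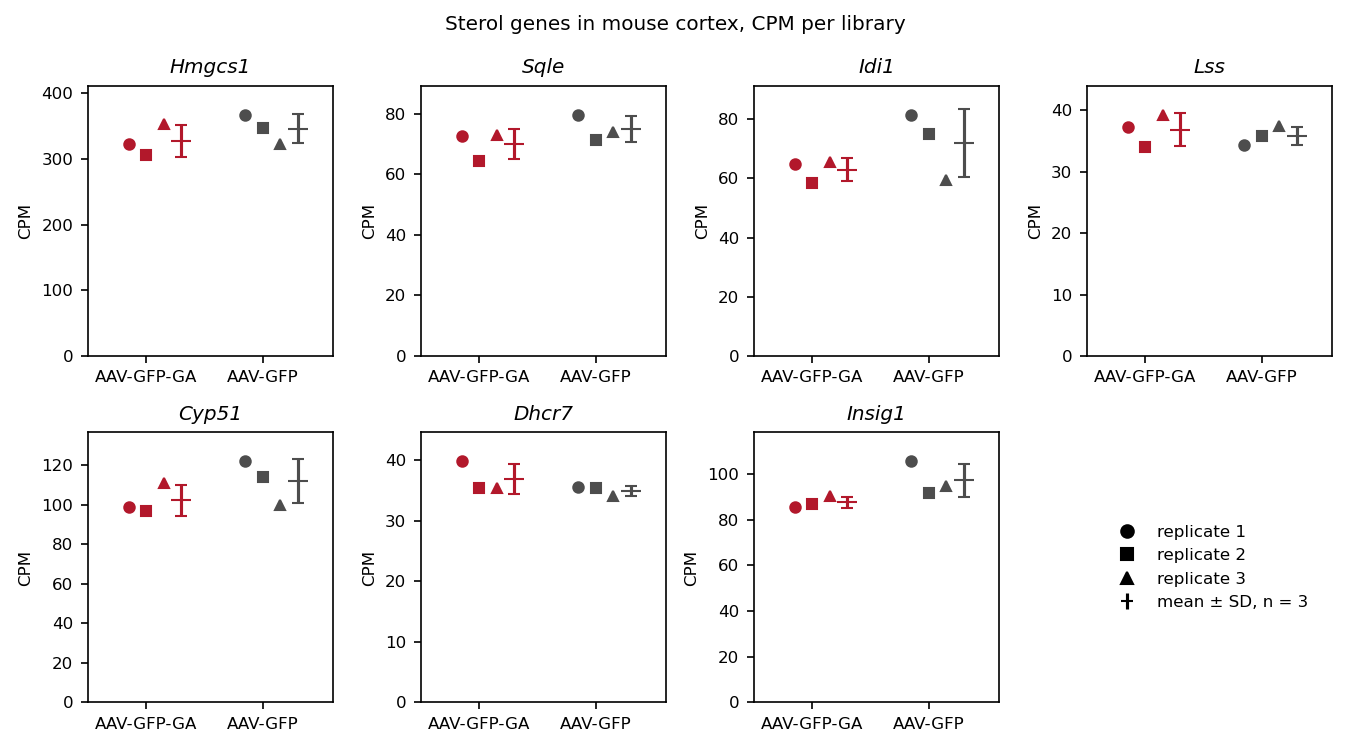
CPM of the 7 sterol genes (y axes, from 0) in each library, with AAV-GFP-GA in red on the left and AAV-GFP in grey on the right; symbols are replicates and bars are mean ± SD over 3 libraries. Only the Insig1 values of the groups do not overlap, with AAV-GFP-GA libraries from 85.7 to 90.3 CPM and AAV-GFP libraries from 91.8 to 106 CPM.

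Hmgcs1, cytosolic HMG-CoA synthase, joins acetyl-CoA units in an early step of the mevalonate pathway (Entrez gene 208715, chromosome 13, 119690351 to 119708260). Poly-GA cortex (AAV-GFP-GA) had Hmgcs1 levels of 322, 306 and 354 CPM, against 367, 348 and 323 CPM for AAV-GFP; these and all later sets of 3 values are listed by replicate. AAV-GFP replicate 3 lay among the AAV-GFP-GA libraries, and AAV-GFP-GA replicate 3 among the controls, so the groups overlapped. On the log2 scale Hmgcs1 differed by -0.079 ± 0.070 (SE; the same error is given with all log2 fold changes). The 95% interval covered 0.850-fold to 1.05-fold, and edgeR's adjusted p was 0.817. Leaving out AAV-GFP-GA replicate 2 brought it to -0.034 and leaving out AAV-GFP-GA replicate 3 to -0.14. Omission of AAV-GFP replicate 1 gave -0.035, and of AAV-GFP replicate 3 it gave -0.12. With the library set term it had the other sign, at 0.019 ± 0.084.

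Idi1, isopentenyl diphosphate isomerase, converts between the pair of building blocks from which isoprenoids are assembled (Entrez gene 319554, chromosome 13, 8885606 to 8892396). Idi1 was at 64.8, 58.4 and 65.6 CPM with AAV-GFP-GA, against 81.5, 75.2 and 59.4 CPM with AAV-GFP. AAV-GFP replicates 1 and 2 were above all other libraries, and AAV-GFP replicate 3 lay within the AAV-GFP-GA range. The coefficient of variation of Idi1 was 6.25% in AAV-GFP-GA and 15.8% in AAV-GFP cortex, and no other of the 7 genes varied as much in AAV-GFP cortex. Its log2 fold change of -0.19 ± 0.10 had an adjusted p of 0.751 by edgeR. Without AAV-GFP replicate 3 it was -0.31 ± 0.067 (adjusted p = 0.0644 by edgeR), whereas omission of AAV-GFP replicate 1 gave -0.096 ± 0.10 (adjusted p = 0.940 by edgeR). In the fit with the library set term Idi1 was at 0.084 ± 0.087 (adjusted p = 0.882). The read values of Idi1 were not whole in all 6 libraries, so part of them was shared with another annotated sequence by the authors' estimate.

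Sqle, squalene epoxidase, adds the oxygen that later becomes the hydroxyl group of cholesterol (Entrez gene 20775, chromosome 15, 59315092 to 59331193). It was at 72.6, 64.4 and 73.1 CPM with poly-GA and at 79.6, 71.3 and 73.9 CPM with GFP alone. The difference between the groups came to -0.098 ± 0.071 on the log2 scale and was within the spread of the libraries (adjusted p = 0.776 by edgeR). AAV-GFP-GA replicate 2 held the lowest value and AAV-GFP replicate 1 the highest. When the lowest was left out the difference was -0.041, and when the highest was left out it was -0.052.

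Lss, lanosterol synthase, closes the sterol rings (Entrez gene 16987, chromosome 10, 76531565 to 76557139). Lss stood at 37.4, 34.0 and 39.3 CPM in AAV-GFP-GA libraries and at 34.3, 35.8 and 37.4 CPM in AAV-GFP libraries. The groups overlapped, with the lowest and the highest value both in AAV-GFP-GA libraries. The log2 fold change, 0.041 ± 0.078, had an adjusted p of 0.927 by edgeR. Omission of AAV-GFP-GA replicate 3 gave Lss -0.0041, and that of AAV-GFP-GA replicate 2 gave 0.096. Among the controls, leaving out replicate 1 gave 0.011 and leaving out replicate 3 gave 0.076. The library set term turned its sign, to -0.020 ± 0.098.

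Cyp51, lanosterol 14-alpha demethylase, takes the first steps from lanosterol toward cholesterol (Entrez gene 13121, chromosome 5, 4080674 to 4104697). Its libraries had 98.8, 96.8 and 111 CPM with AAV-GFP-GA and 122, 114 and 99.8 CPM with AAV-GFP. As for Idi1, AAV-GFP replicates 1 and 2 were the highest and AAV-GFP replicate 3 was within the AAV-GFP-GA range. Cyp51 had a log2 fold change of -0.13 ± 0.083 with an adjusted p of 0.756 by edgeR. The value was -0.20 ± 0.068 without AAV-GFP replicate 3 (adjusted p = 0.147 by edgeR), and omission of AAV-GFP replicate 1 gave -0.065 ± 0.086 (adjusted p = 0.953). With the library set term it was 0.036 ± 0.087 (adjusted p = 0.956).

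Dhcr7, 7-dehydrocholesterol reductase, makes cholesterol in the last step of 1 branch of the pathway (Entrez gene 13360, chromosome 7, 143823167 to 143848410). Its values were 39.8, 35.4 and 35.3 CPM in AAV-GFP-GA cortex and 35.5, 35.3 and 34.0 CPM in AAV-GFP cortex. Apart from AAV-GFP-GA replicate 1, all libraries lay between 34.0 and 35.5 CPM. The log2 fold change was 0.077 ± 0.074 with an adjusted p of 0.838 by edgeR. Dhcr7 was at 0.020 without AAV-GFP-GA replicate 1, and at 0.12 ± 0.097 with the library set term.

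Insig1, the sterol-sensing retention protein of SCAP (Entrez gene 231070, chromosome 5, 28071412 to 28078662), was at 85.7, 87.0 and 90.3 CPM in poly-GA cortex (AAV-GFP-GA) and at 106, 91.8 and 94.9 CPM in AAV-GFP cortex. Every AAV-GFP-GA value was below every AAV-GFP value, which held for 1 of the 7 genes and, in the same direction, for 5.79% of all tested genes. The gap between the nearest libraries was small, at 90.3 against 91.8 CPM. The groups averaged 87.7 ± 2.37 and 97.4 ± 7.23 CPM (SD, n = 3 each), AAV-GFP-GA first. The log2 fold change was -0.15 ± 0.066, or 0.900-fold, with a 95% interval from 0.814-fold to 0.995-fold. Its unadjusted p of 0.0412 ranked 774 among all genes and its adjusted p was 0.742 by edgeR. Leaving AAV-GFP replicate 1 out gave -0.091 ± 0.067 on the log2 scale, and with the library set term it was -0.11 ± 0.082.

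**Figure D2:**
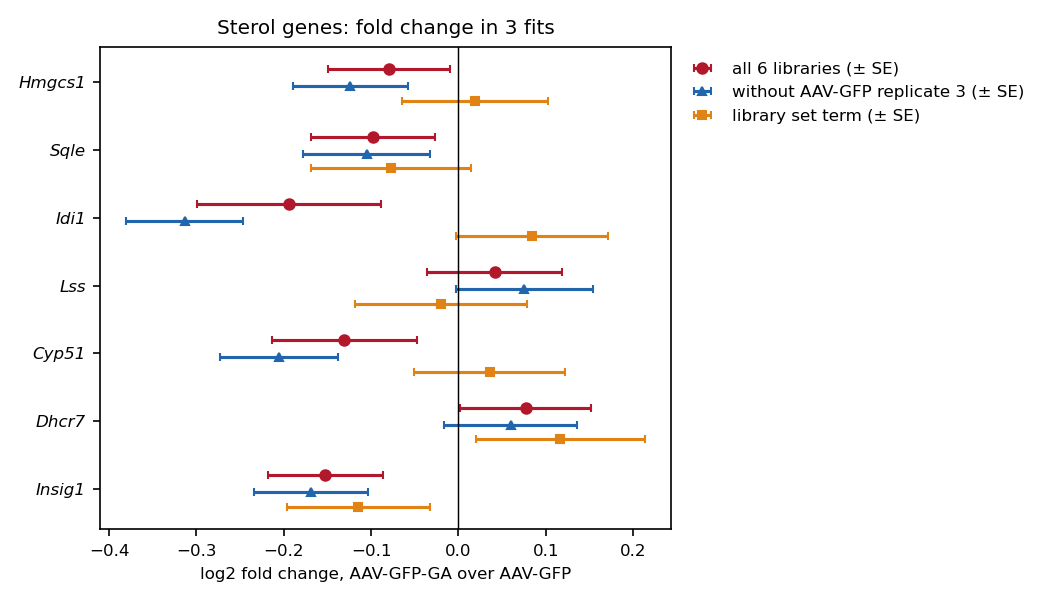
Log2 fold change of AAV-GFP-GA over AAV-GFP (x axis) for the 7 sterol genes (rows) in 3 edgeR fits, each ± SE. Without AAV-GFP replicate 3 Idi1 stands at -0.31 and Cyp51 at -0.20, and with the library set term both lie above 0, at 0.084 and 0.036.

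Per length of transcript, Hmgcs1 was the most abundant of the set. Its CPM per kilobase of exon was 94.1 ± 6.89 in AAV-GFP-GA and 99.4 ± 6.32 in AAV-GFP cortex (SD, n = 3 each), with lengths taken as the union of GENCODE M21 exons. Next came Insig1 at 32.5 ± 0.878 and 36.1 ± 2.68, in the same unit and order of groups, and then Cyp51, whose means were 26.0 and 28.5 with a range of 24.6 to 31.0 over all libraries. Sqle at 25.4 ± 1.77 and 27.2 ± 1.54, and Idi1 at 20.8 ± 1.30 and 23.8 ± 3.76, followed. Dhcr7 with 11.1 ± 0.761 and 10.6 ± 0.251, and Lss with 7.90 ± 0.568 and 7.68 ± 0.329, were lowest. Over all 6 libraries the ranges of the neighbours Cyp51, Sqle and Idi1 overlapped. Those of Hmgcs1 and Insig1, of Insig1 and Cyp51, of Idi1 and Dhcr7, and of Dhcr7 and Lss did not.

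The 7 genes did not vary as 1 unit. Over the 6 libraries the log2 CPM of Hmgcs1 and Cyp51 had a Pearson r of 0.97, of Idi1 and Cyp51 0.93, and of Hmgcs1 and Idi1 0.87. Sqle and Insig1 were positively related to each of these, with r from 0.67 to 0.78. Lss and Dhcr7 stood apart: with the other 5 genes Lss had r between -0.32 and 0.20, and Dhcr7 between -0.47 and 0.035. These values describe 6 libraries that share groups and library sets, and no p is given. In all, 14 of 21 pairs were positive, with a median r of 0.20.

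AAV-GFP replicate 1 held the highest value of Hmgcs1, Idi1, Sqle, Cyp51 and Insig1, and AAV-GFP-GA replicate 2 the lowest of these 5 except Insig1, whose lowest was in AAV-GFP-GA replicate 1. Averaged over the 7 genes, log2 CPM was 0.12 above the mean of all libraries in AAV-GFP replicate 1. The same deviation was -0.12 in AAV-GFP-GA replicate 2 and between -0.042 and 0.034 in the other 4. Summed over the set, CPM came to 721, 683 and 769 with AAV-GFP-GA, against 826, 771 and 723 with AAV-GFP. For Hmgcs1, counting error alone would give a coefficient of variation of 1.31%, and it was 7.32% in AAV-GFP-GA and 6.36% in AAV-GFP cortex. The distance from counting error differed between genes and groups. Idi1 varied by 6.25% in AAV-GFP-GA and 15.8% in AAV-GFP cortex, where counting error alone would give 2.94%. Dhcr7 varied by 6.84% in AAV-GFP-GA and 2.38% in AAV-GFP cortex, where counting error alone would give 4.02%.

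**Figure D3:**
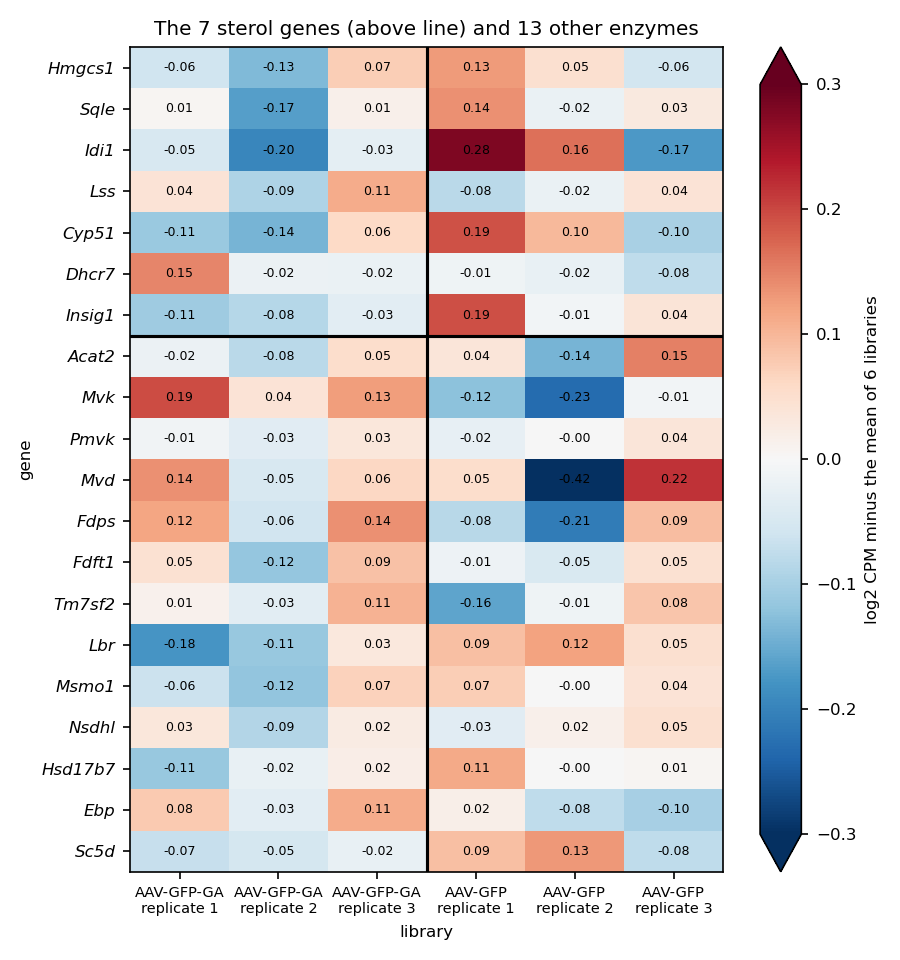
Log2 CPM minus the mean of all 6 libraries (colour and printed value) for the 7 sterol genes above the line and 13 of 15 other enzymes of synthesis below it, with AAV-GFP-GA libraries left of AAV-GFP libraries. Hmgcs1, Idi1 and Cyp51 are highest in AAV-GFP replicate 1, at 0.13, 0.28 and 0.19, and negative in AAV-GFP replicate 3, at -0.056, -0.17 and -0.097; Mvd in AAV-GFP replicate 2, at -0.42, is beyond the colour scale.

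The other enzymes of the pathway gave no call either. Of 15 tested, 0 passed and 1 had an unadjusted p under 0.05 (6.64% of all genes), with 7 positive and 8 negative log2 fold changes and a median of -0.0073. Msmo1, a C-4 sterol demethylase, had 125, 120 and 137 CPM in AAV-GFP-GA libraries and 137, 130 and 134 CPM in AAV-GFP libraries, with overlapping groups and a log2 fold change of -0.073 ± 0.063. Fdft1, squalene synthase, had 125, 112 and 129 CPM with AAV-GFP-GA, against 120, 117 and 125 CPM with AAV-GFP, and a log2 fold change of 0.013 ± 0.066 (-0.038 with the library set term). Mvk, mevalonate kinase, was singled out after its values were seen: it averaged 18.7 ± 1.02 CPM in AAV-GFP-GA and 15.8 ± 1.25 CPM in AAV-GFP cortex (SD, n = 3 each), with groups that did not overlap. Of the 15 enzymes 1 lay higher without overlap and 2 lower, against 6.11% and 5.79% of all tested genes. The log2 fold change of Mvk, 0.25 ± 0.092, had an unadjusted p of 0.0218 (adjusted p = 0.742 by edgeR). Among all genes 3.19% were higher at an unadjusted p under 0.05.

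Among 14 genes of uptake and trafficking 0 passed and 3 had an unadjusted p under 0.05 (6.64% of all genes), with 6 positive and 8 negative values and a median of -0.019. Mylip, a sterol-regulated ubiquitin ligase that limits lipoprotein uptake, had 12.4, 13.3 and 13.7 CPM with poly-GA and 16.4, 15.8 and 14.5 CPM without. The Mylip groups did not overlap, and its log2 fold change was -0.25 ± 0.092 with an adjusted p of 0.742 by edgeR. Without overlap, 1 of the 14 genes lay lower and 2 higher, against 5.79% and 6.11% of all tested genes. Mylip was at -0.15 ± 0.12 with the library set term. Npc1, which exports cholesterol from lysosomes, had a log2 fold change whose 95% interval ran from 0.915-fold to 1.09-fold (log2 fold change 0.075 with the library set term), and Stard4, a cytosolic sterol carrier, had -0.066 ± 0.074.

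Lrp1, a large receptor that takes up particles with apolipoprotein E, had the highest CPM of this list. Lrp1 stood at 474, 470 and 470 CPM with AAV-GFP-GA, against 426, 391 and 431 CPM with AAV-GFP, without overlap. The log2 fold change of Lrp1 was 0.18 ± 0.055, with an unadjusted p of 0.00762 (adjusted p = 0.742 by edgeR). Sorl1, a sorting receptor of the same receptor family, had 0.098 ± 0.059. Scarb1, a receptor for high-density lipoprotein that was singled out after its values were seen, averaged 23.8 ± 0.625 CPM in AAV-GFP-GA and 20.6 ± 2.06 CPM in AAV-GFP cortex (SD, n = 3 each; adjusted p = 0.742 by edgeR). The sum of the 8 endothelium markers, led by Flt1, did not overlap either. It was 205 to 245 CPM in AAV-GFP-GA and 169 to 203 CPM in AAV-GFP libraries. By gene, 3 of the 8 were higher without overlap, as Lrp1 was, and 0 lower. Among all tested genes 6.11% were higher without overlap. The 7 microglia markers summed to 410 to 427 CPM in AAV-GFP-GA and 376 to 406 CPM in AAV-GFP libraries, also without overlap. By gene, 2 of the 7 were higher without overlap and 0 lower. Their part in the values of Lrp1 and Scarb1 was not tested. In bulk tissue more cells of a type and more RNA per cell cannot be told apart.

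Genes that control SREBP were close to even. Of 12 tested 0 passed and 2 had an unadjusted p under 0.05 (6.64% of all genes), with 6 positive and 6 negative values and a median of 0.0076. Srebf2, which encodes SREBP2, was at 244, 224 and 246 CPM in AAV-GFP-GA and at 228, 214 and 243 CPM in AAV-GFP libraries, a log2 fold change of 0.059 ± 0.065 with overlapping groups (-0.029 with the library set term). Scap had 0.089 ± 0.069, and -0.017 with the library set term. Insig2, the second INSIG gene, had -0.052 ± 0.076, and 0.090 with that term. Srebf1 encodes the relative that governs fatty acid synthesis. It had 57.6, 51.0 and 55.3 CPM in AAV-GFP-GA libraries and 50.2, 49.0 and 46.9 CPM in AAV-GFP libraries. Its groups did not overlap, with a log2 fold change of 0.17 ± 0.069 (adjusted p = 0.742 by edgeR). In this list 1 of 12 genes lay higher without overlap and 0 lower, against 6.11% and 5.79% of all tested genes. Erlin1, singled out after its values were seen, averaged 29.0 ± 1.24 CPM in AAV-GFP-GA and 33.0 ± 2.77 CPM in AAV-GFP cortex (SD, n = 3 each; adjusted p = 0.746 by edgeR); it encodes a membrane protein of the endoplasmic reticulum that binds cholesterol.

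The genes of export, storage and oxysterols also gave 0 calls among 11 tested of 12, with Ch25h below the filter, and 1 unadjusted p under 0.05, that of Apoe (6.64% of all genes). Here 8 values were positive and 3 negative, with a median of 0.063. Apoe, the lipid carrier of astrocytes and microglia, had 1296, 1229 and 1223 CPM in AAV-GFP-GA and 1167, 1106 and 1169 CPM in AAV-GFP libraries. Without overlap between the groups, its log2 fold change was 0.12 ± 0.050 and its adjusted p 0.742 by edgeR. Higher values without overlap were found for 3 of the 11 genes and lower ones for 0. Over all tested genes the shares were 6.11% and 5.79%. The sum of the microglia markers was also higher without overlap, and that of the astrocyte markers overlapped. The part of either in the Apoe values was not tested. The exporters Abca1 and Abcg1 had log2 fold changes of 0.049 ± 0.074 and -0.067 ± 0.055. Abca1 was at 0.20 ± 0.075 (adjusted p = 0.715 by edgeR) and Abcg1 at -0.11 ± 0.064 with the library set term. Cyp46a1, the neuronal 24-hydroxylase through which cholesterol leaves the brain, averaged 208 ± 11.6 CPM in AAV-GFP-GA and 199 ± 21.2 CPM in AAV-GFP cortex (SD, n = 3 each). Its log2 fold change was 0.063 ± 0.079, and -0.10 with the library set term.

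Among 13 fatty acid genes driven by SREBP1 0 passed and 1 had an unadjusted p under 0.05 (6.64% of all genes), with 6 positive and 7 negative values and a median of -0.0049. Scd2, a desaturase, had 1522 ± 36.5 CPM in AAV-GFP-GA and 1594 ± 45.1 CPM in AAV-GFP cortex, and Fasn, fatty acid synthase, had 333 ± 12.2 and 322 ± 28.3 CPM in that order (SD, n = 3 each). The log2 fold change of Scd2 was -0.067 ± 0.047 (-0.032 with the library set term), and that of Fasn 0.051 ± 0.070 (-0.063 with that term). Fads2, a further desaturase chosen after its values were seen, stood at 0.15 ± 0.067 on the log2 scale (adjusted p = 0.746 by edgeR).

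**Figure D4:**
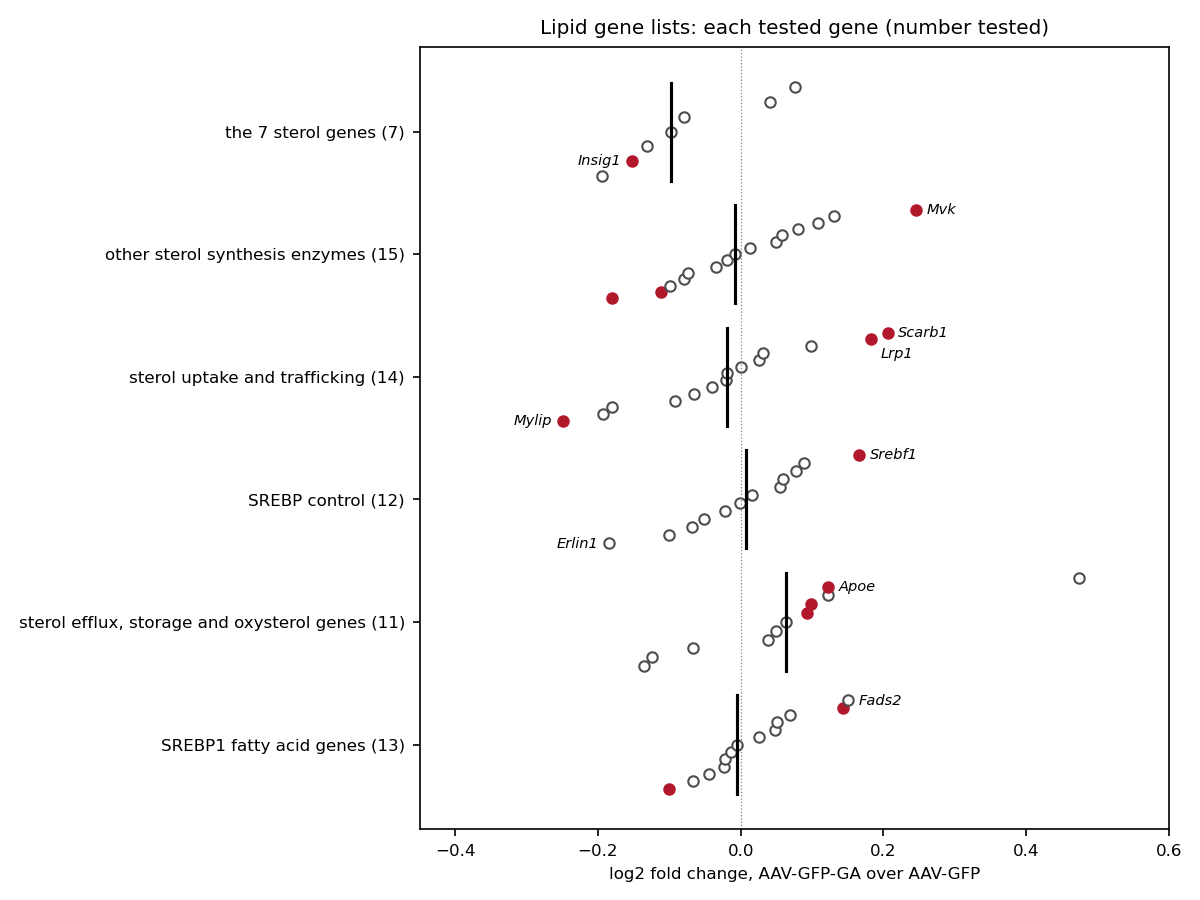
Log2 fold change of AAV-GFP-GA over AAV-GFP (x axis) for every tested gene of 6 lists (rows, with the number tested); black lines are list medians, filled points are genes whose groups do not overlap, and names mark an unadjusted p under 0.05. The median of the 7 sterol genes lies at -0.10 and those of the other 5 lists between -0.019 and 0.063. With the library set term, which is not drawn, the median was 0.019 for the 7 genes and -0.053 for the other synthesis enzymes, and the other 4 medians lay between -0.0065 and 0.076.

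Marker sums of the cell types that make or use much cholesterol overlapped between the groups. The 12 myelinating oligodendrocyte markers, led by Mbp, summed to 6760 to 7338 CPM in AAV-GFP-GA and 6879 to 7316 CPM in AAV-GFP libraries. The 7 markers of oligodendrocyte precursors and newly formed oligodendrocytes summed to 388 to 414 CPM and 367 to 415 CPM, and the 10 astrocyte markers, led by Slc1a2, to 6324 to 7300 CPM and 6547 to 6934 CPM, AAV-GFP-GA first. Blood markers, led by Hbb-bs, summed to 418 to 596 CPM in AAV-GFP-GA and 307 to 683 CPM in AAV-GFP libraries. Choroid plexus markers, led by Ttr, summed to 42.7 to 539 CPM in AAV-GFP-GA and 235 to 1124 CPM in AAV-GFP libraries, with the highest sum in AAV-GFP replicate 1. AAV-GFP replicate 1 also had the highest blood sum and the highest level of 5 of the 7 sterol genes; the part of blood and choroid plexus in these levels was not tested.

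Outside the lists, 9719 genes with at least 10 CPM were ranked by how closely their log2 CPM followed the mean standardised profile of the 7 genes over the 6 libraries. Glud1, glutamate dehydrogenase of mitochondria, led with a Pearson r of 0.98, followed by Ndufb5, Nol4l, Spag7 and Tada2b, with r from 0.97 to 0.98. Glud1 was at 279 ± 13.1 CPM in AAV-GFP-GA and 288 ± 10.2 CPM in AAV-GFP cortex (SD, n = 3 each). With 6 libraries and this many candidates, high values of r arise readily, and they are given as a description. The same profile had r of 0.80 with Msmo1 and 0.46 with Fdft1.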

How the data were processed

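RNA sequencing libraries of mouse cortex, 3 of AAV-GFP-GA and 3 of AAV-GFP, were grouped by the treatment in the labels. Per the labels' protocols, Trizol was used for extraction and BGI's standard library preparation followed. Bowtie2 2.2.5 and RSEM 1.2.12, with the mouse build mm10, are listed in the submitters' processing notes. Not given in the sources used here were the annotation, the strand setting and read filters. Hmgcs1, Idi1, Lss and Cyp51 overlap genes on the other strand in GENCODE M21, so reads of the partners may not be told apart. The authors deposited expected counts per gene, unscaled, with 7.32% to 7.81% of values not whole. Where RSEM shares reads among similar genes, as for Idi1, values rest on that estimate.

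Here 1 row with no gene was left out, and 25 symbols turned into dates were restored by gene identifier (18162 of 18283 identifiers matched RefSeq, GRCm38.p6). Expected counts were rounded, filtered with filterByExpr and scaled by TMM, with factors from 0.991 to 1.01. Groups were compared with edgeR 4.0.16 in R 4.3.3, two-sided, without covariates, with Benjamini-Hochberg adjustment over 14324 genes. Intervals are 95%. For log2 CPM 0.5 was added. The fit was tested on simulated data with fold changes larger than those of the sterol genes. That test does not bear on differences of their size. Replicates of a group differed by a chi-square per degree of freedom of 3.25 to 10.6, so none was merged. Alternatives were DESeq2 1.42.0, limma-voom (limma 3.58.1), other scaling and filters, a replicate block, a library set term and leaving out each library.

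The genes and lists were chosen with earlier results of these data known. The genes to be named were fixed by rule: the 7 genes, 19 further pathway genes, members past the threshold or otherwise the 2 most expressed of each list, the most expressed marker of each cell type list, and the 5 genes most alike in pattern. Others are marked as chosen after their values were seen. Some genes named by the rule are not reported here.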

Additional observations from a re-analysis of the deposited data

How the results depend on the processing

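In all 14 alternatives 0 of the 7 sterol genes passed, nor did any gene of the 5 other lipid lists; the lowest adjusted p of the 7 genes was 0.0644, for Idi1 without AAV-GFP replicate 3 (edgeR). Of 98 alternative log2 fold changes of the 7 genes, 5 had the other sign, all of them of values that were not called. With the library set term these were Hmgcs1 at 0.019, Idi1 at 0.084, Cyp51 at 0.036 and Lss at -0.020. The same term turned Fdft1 to -0.038, Srebf2 to -0.029, Scap to -0.017, Insig2 to 0.090, Cyp46a1 to -0.10 and Fasn to -0.063. By library totals only, Npc1 had -0.0022. Leaving out 1 library gave ranges that cross 0 for Lss (-0.0041 to 0.096), Fdft1 (-0.027 to 0.072), Npc1 (-0.034 to 0.026), Abca1 (-0.017 to 0.10) and Fasn (-0.014 to 0.11). Over all genes, 3 were called, 10 by DESeq2 and 9 with the library set term. Leaving out 1 library gave 2 to 72, the last without AAV-GFP replicate 3. The cause was not tested. The labels give no pairing of libraries by replicate number. Deviations of same-numbered libraries correlated at 0.094, -0.13 and 0.060, and those of differently numbered libraries between -0.23 and 0.17. Such values cannot show whether libraries were paired. With the replicate block 2 genes were called, and 0 of the 7. All comparisons rest on 3 libraries a group.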

Other observations

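The low value of a single library in Mvd was noticed after the values were seen, and no cause was tested. Mvd, mevalonate diphosphate decarboxylase, had 21.3, 18.7 and 20.2 CPM in AAV-GFP-GA libraries and 20.1, 14.3 and 22.6 CPM in AAV-GFP libraries, with the low value in AAV-GFP replicate 2.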
